A study of Mus musculus with 10 samples.

Results

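The comparison here is between cells with a high and cells with a low OSCAR signal, both taken from the gate in which the reporter's EF1a promoter was weakly active. Its members are the 2 libraries titled P2 (genotype OSCARhigh EF1alow) and the 2 titled P1 (genotype OSCARlow EF1alow), chosen by their deposited titles, and they are 4 of the 10 libraries of the series. OSCAR is a reporter of transcription elongation: a Venus protein with an inserted CDK9 target site loses fluorescence when CDK9 phosphorylates it, and mCherry made from the same transcript gives the amount of reporter. A high Venus to mCherry ratio (OSCARhigh) therefore marks cells with little CDK9 activity and little phosphorylation of serine 2 on RNA polymerase II, and the EF1a gate sorts cells by how strongly the transgene as a whole is expressed. All 4 libraries came from C57BL6/J mice that carry the reporter at the Rosa26 locus under the EF1a promoter, with the stop cassette removed in the germline by Vasa-Cre, so every tissue can express it. The sex and age of the mice and the number of mice behind each library are not given in the sources used here. Small intestinal crypts were dissociated, live EpCAM-positive epithelial cells were sorted, and polyadenylated RNA from 10000 cells per population was sequenced. Each group has 2 libraries, so n = 2 per group throughout. Errors and p-values come from the spread between replicate libraries, pooled over all 5 populations and 10 libraries, not from P1 and P2 alone.

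The intestinal crypt holds stem cells at its base, dividing progenitors above them and several differentiated types. Paneth cells release lysozyme and defensins, goblet cells release mucin, enteroendocrine cells release hormones, tuft cells sense the lumen, and enterocytes absorb nutrients through a brush border. Secretory types descend from progenitors that switch on the transcription factor Atoh1, while absorptive types depend on factors such as Hnf4a and Hnf4g. CDK9 with its cyclin partners forms P-TEFb, the kinase that lets paused RNA polymerase II proceed into the gene.

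The names P2 and P3 conflict between the deposited titles and the figures of the study. The figures give to P3 the secretory markers that are high in the libraries titled P2. They give to P2 an enrichment of Tert and Krt19, but neither gene was called higher in the libraries titled P2 than in P1. No library was renamed here: P2 means the libraries labelled P2, whose deposited genotype is OSCARhigh EF1alow, and every direction below depends on that label. If the names were exchanged, the values below would describe another population against P1.

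After removal of ribosomal RNA, gene counts per library lay between 4780776 and 6356037, and 15747 to 16773 genes had at least 1 count. Mitochondrially encoded genes took between 1.02% and 1.71% of the counts, against 58.6% and 35.5% in the 2 libraries titled P3. Those 2 libraries were outside the contrast but entered the filter on low counts, the scaling and the estimate of spread. The counts were far more concentrated in P2, where the 10 most abundant genes held 47.9% and 41.3% of all counts, than in P1, where they held 8.10% and 10.9%. Levels are therefore given as CPM, counts scaled to a common library size of 1000000 after correction by TMM, a scaling factor that keeps a few dominant transcripts from lowering every other gene. The TMM factors were 0.948 and 0.950 in P1 and 0.687 and 0.707 in P2.

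Of 13706 genes tested, 3989 (29.1%) differed between P2 and P1 at an adjusted p below 0.01 in edgeR's quasi-likelihood test. Among all genes tested, 1905 (13.9%) were higher and 2084 (15.2%) lower in P2. Every count of called list members below is to be read against these shares. Of the called genes, 1118 were over 4-fold higher and 898 over 4-fold lower, and the median size of a called change was 2.01 on the log2 scale. The P2 and P1 libraries did not overlap in 10555 genes, 77% of those tested, so a lack of overlap between 2 and 2 libraries is common here. The count of called genes depended on each library, with 1951 calls without P1 replicate 1, 2146 without P1 replicate 2, 1576 without P2 replicate 1 and 2465 without P2 replicate 2. All 3989 called genes kept their direction in each of those 4 fits. Scaling by library totals alone, with no TMM factor, shifted the median of all genes from 0.01 to -0.43 on the log2 scale and lowered the share of calls that were higher in P2 from 47.8% to 27.1%.

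**Figure D1:**
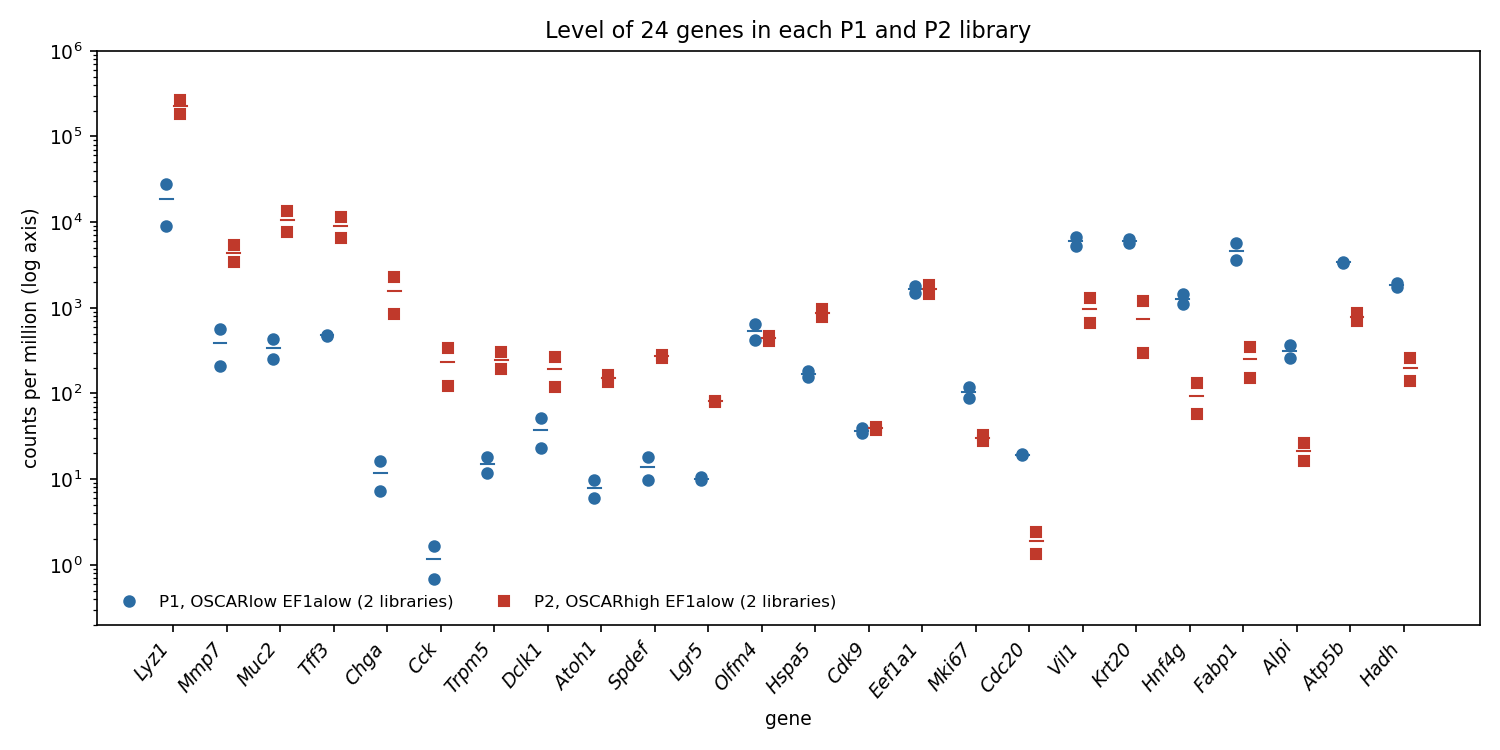
CPM on a log axis for 24 genes, with a point for each of the 2 P1 libraries (circles) and the 2 P2 libraries (squares) and a bar at each group's mean. Secretory genes on the left lie higher in P2, Cdk9 and Eef1a1 overlap between the groups, and mitotic, absorptive and mitochondrial genes on the right lie lower in P2.

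The largest part of the P2 transcriptome was Paneth cell product. Genes of the Paneth granule held 49.7% and 39.3% of all counts in P2 replicates 1 and 2, and 2.38% and 8.22% in P1 replicates 1 and 2. All 23 tested members had a positive change, between 3.19 and 4.82 on the log2 scale with a median of 3.49, against a median of 0.01 over all genes. Only 6 of the 23 passed the test, a share of the list to be read against 13.9% of all genes called higher. The 6 were Defa5 and Defa17, which encode alpha-defensins, the defensin-family genes Gm15284 and Gm15315, Clps, which encodes pancreatic colipase, and Mmp7, the protease that activates defensins.
Lyz1, the lysozyme of Paneth cells, stood at 9008 and 28122 CPM in P1 replicates 1 and 2 and at 265109 and 183581 CPM in P2 replicates 1 and 2. Its log2 fold change was 3.60 with a standard error (SE) of 1.13, and it was not called (edgeR adjusted p = 0.0269). Mmp7 rose from 210 and 570 CPM in P1 to 5408 and 3379 CPM in P2, a log2 fold change of 3.49 (SE 0.74, edgeR adjusted p = 0.00488). For both genes the lowest P2 library was several times above the highest P1 library, and P1 replicate 2 was about 3 times P1 replicate 1, as it was for the Paneth share. Itln1, an intestinal lectin, and Defa24 showed the same order, with log2 fold changes of 3.37 and 3.59 that were not called. Gm15299 was the only tested member whose libraries overlapped, at 28.3 and 0.17 CPM in P1 and 802 and 6.24 CPM in P2. Leaving out P1 replicate 1 or P2 replicate 1 left 0 Paneth calls, leaving out P2 replicate 2 left 1, and leaving out P1 replicate 2 gave 7. DESeq2 called 21 of the tested members higher. The defensin genes are close copies of each other, so reads shared between copies were not counted and the level of a single defensin is uncertain.

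Nearly all goblet cell genes rose in P2. Of 21 tested genes of goblet secretion, 19 were called higher in P2 and 0 lower, with a median log2 fold change of 4.25. Muc2, the gel-forming mucin of the intestine, rose from 255 and 431 CPM in P1 to 7635 and 13533 CPM in P2 (log2 fold change 4.95, SE 0.61, edgeR adjusted p = 0.000472). Tff3, a trefoil peptide secreted with mucin, rose from 484 and 466 CPM to 6499 and 11555 CPM (log2 fold change 4.25, SE 0.47). In both genes P2 replicate 2 was the higher P2 library, while P2 replicate 1 held more of the Paneth transcripts. Fcgbp and Zg16, which encode mucus layer proteins, changed by 4.60 and 4.73 on the log2 scale, and Agr2, an enzyme needed for mucin folding, by 3.18. The members that were not called were B3gnt6, an enzyme of mucin glycosylation (1.28), and the chemokine Ccl9 (3.31). The goblet calls numbered 16 without P1 replicate 1 and 17 without each of the other libraries. With the 50 most abundant genes removed, 15 goblet genes stayed in the test and 13 of them were called higher.

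Most hormone genes of enteroendocrine cells rose in P2. Of 14 tested hormone and amine genes, 9 were called higher and 0 lower, with a median of 4.80. Chga, which encodes the granule protein chromogranin A, stood at 16.4 and 7.36 CPM in P1 and at 850 and 2287 CPM in P2 (log2 fold change 7.04, SE 1.02, edgeR adjusted p = 0.000823). Cck, the hormone cholecystokinin, stood at 0.678 and 1.67 CPM in P1 and at 122 and 340 CPM in P2 (log2 fold change 7.59, SE 0.78). Cck was close to the limit of detection in P1, where 3 counts correspond to 0.505 CPM, while Chga was above it, and for both genes P2 replicate 2 held 2 to 3 times as much as P2 replicate 1. Sst, Sct and Ghrl, which encode somatostatin, secretin and ghrelin, were called at 4.47, 5.06 and 3.92. Ucn3, the peptide urocortin 3, had 0 counts in both P1 libraries and 34 and 128 counts in P2, at least 38.5-fold higher than 3 counts per P1 library would be. Gip, the incretin of K cells, reached 1901 and 4165 CPM in P2 but stood at 3.22 and 121 CPM in P1, and was not called (5.61, SE 1.77, edgeR adjusted p = 0.0276).
Genes of the hormone granule were higher as well, with 14 of 15 called higher, 0 lower and a median of 5.16. Cpe and Pcsk1, enzymes that mature prohormones, changed by 5.55 and 4.56, and Scg3, a granin of the granule, by 6.67. Of 13 transcription factors of the enteroendocrine lineage, 9 were called higher and 0 lower, with Neurod1 at 4.42, Pax6 at 4.67 and Nkx2-2 at 5.81. Leaving out P1 replicate 1, P1 replicate 2, P2 replicate 1 and P2 replicate 2 in turn gave 8, 5, 8 and 5 hormone calls, 8, 6, 12 and 8 granule calls, and 5, 3, 7 and 3 transcription factor calls.

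Tuft cell genes were higher in P2 with a smaller median of 2.37, and 9 of 25 tested were called higher and 0 lower. Trpm5, the cation channel of tuft cell taste signalling, rose from 18.1 and 11.9 CPM to 192 and 302 CPM (log2 fold change 4.04, SE 0.92, edgeR adjusted p = 0.00655). Pou2f3, the transcription factor that specifies tuft cells, was called at 3.25, and Il17rb and Alox5ap, which serve interleukin 25 sensing and leukotriene synthesis, at 3.75 and 3.56. Dclk1, the most used tuft marker, stood at 52.0 and 22.9 CPM in P1 and 118 and 268 CPM in P2, and was not called (2.37, SE 0.90, edgeR adjusted p = 0.0561). For Dclk1 the groups did not overlap, but each group's libraries differed by about 2-fold. The tuft calls fell to 5, 1, 3 and 1 without P1 replicate 1, P1 replicate 2, P2 replicate 1 and P2 replicate 2. In these bulk libraries, more cells of a type and more RNA per cell of that type cannot be told apart, for these and all other lists.

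The transcription factors of secretory fate moved with the products. Of 13 tested, 11 were called higher in P2 and 0 lower, with a median of 3.23. Atoh1, the factor that starts secretory commitment, rose from 6.10 and 9.70 CPM to 136 and 165 CPM (log2 fold change 4.24, SE 0.37, edgeR adjusted p = 0.00022). Spdef, which matures goblet and Paneth cells, rose from 9.66 and 18.2 CPM to 283 and 258 CPM (log2 fold change 4.27, SE 0.36). Bhlha15, which builds the secretory apparatus, changed by 4.43, Sox9, needed for Paneth cells, by 3.23, and Xbp1, the factor spliced in the unfolded protein response, by 2.26. In all 5 of these genes the P2 libraries were close to each other and several times above both P1 libraries. Without one library the number of calls lay between 8 and 9.

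**Figure D2:**
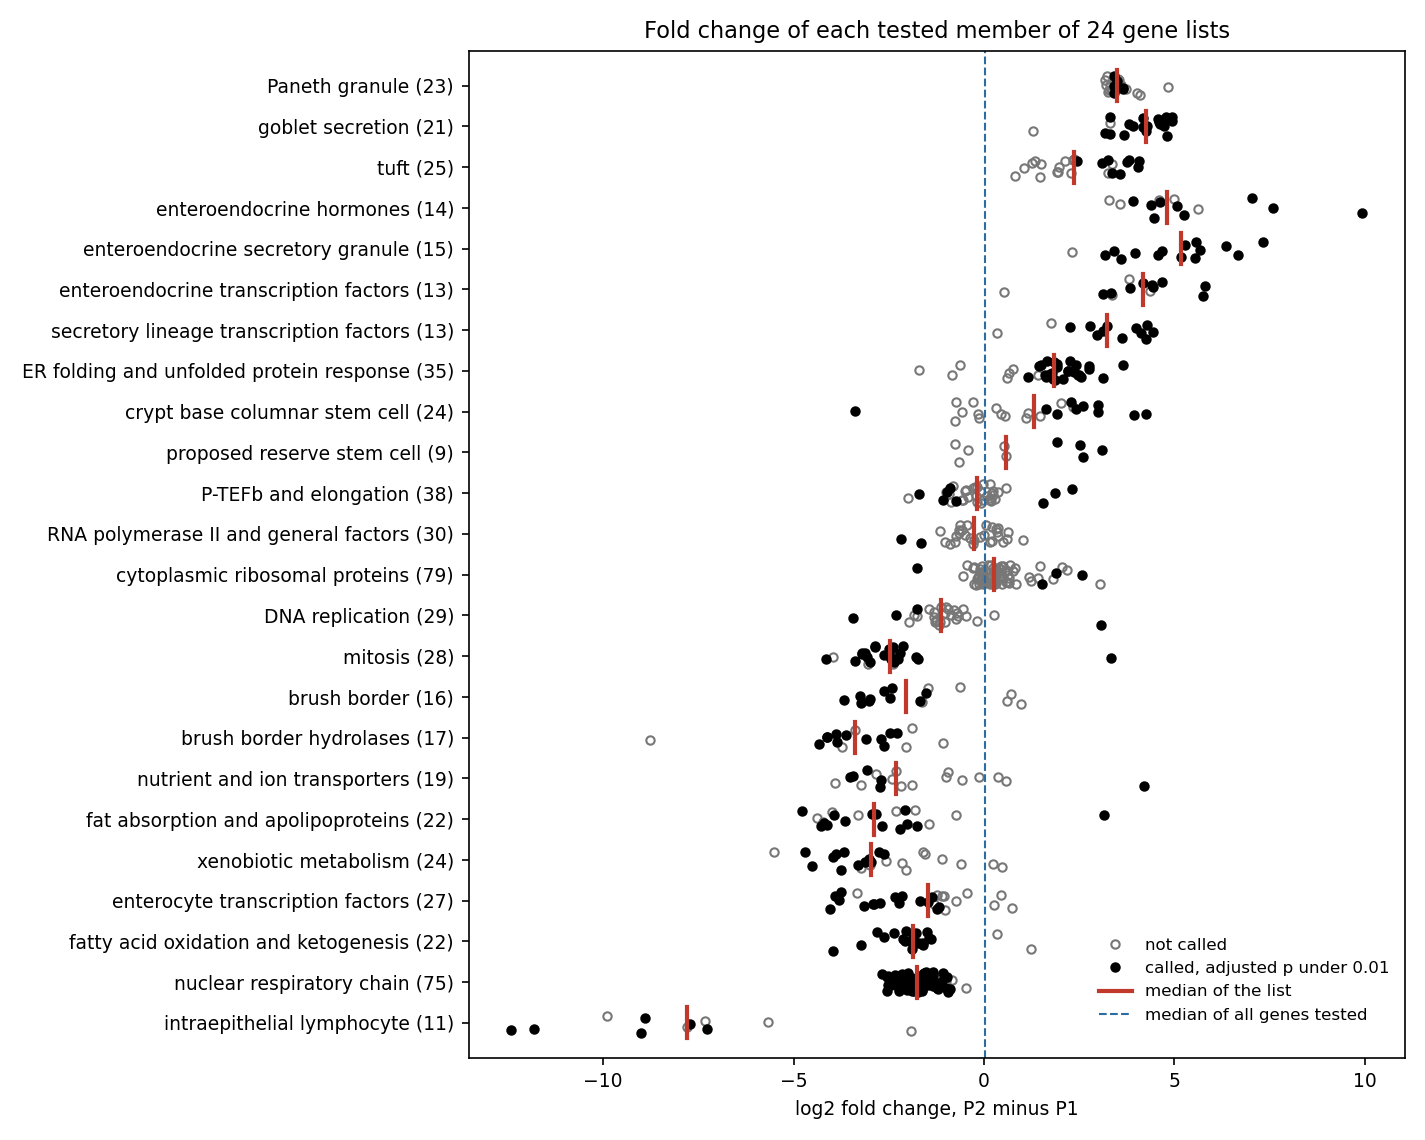
The log2 fold change (P2 minus P1, horizontal axis) of every tested member of 24 gene lists, 1 row a list with its number of tested genes in brackets. Filled points passed an adjusted p below 0.01, open points did not, the thick bar is the list's median and the dashed line is the median of all 13706 genes at 0.01. The secretory lists at the top lie to the right, the elongation and ribosomal lists straddle 0, and the mitotic, absorptive, mitochondrial and lymphocyte lists lie to the left.

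Genes that fold and move proteins through the endoplasmic reticulum (ER) rose on a broad front, with smaller changes than the secreted products. Of 35 tested, 28 were called higher and 0 lower, with a median of 1.83. Hspa5, the ER chaperone BiP, rose from 155 and 183 CPM to 957 and 781 CPM (log2 fold change 2.36, SE 0.30, edgeR adjusted p = 0.000511). Pdia6, a protein disulfide isomerase, rose from 60.0 and 97.4 CPM to 446 and 438 CPM (log2 fold change 2.49, SE 0.26). Ern1, which encodes the stress sensor IRE1 alpha, changed by 3.65 and its epithelial relative Ern2, listed with goblet genes, by 4.80, while the sensors Atf6 and Eif2ak3 changed by 2.20 and 2.46. Stress targets linked to cell death did not pass, with Ddit3 at -0.64 and Trib3 at -1.71. The number of ER calls was 20, 22, 24 and 24 without P1 replicate 1, P1 replicate 2, P2 replicate 1 and P2 replicate 2, and 19 with scaling by library totals.
The ER stress response element, CCAAT and then CCACG with any 9 bases between, is the sequence through which Atf6 and Xbp1 are known to act, and it was searched on both strands of RefSeq promoters (build GRCm38.p6, 250 bases before to 50 after the start). It was found in 37 of 27025 genes with a promoter (0.137%), and in 15 of the 9080 tested genes that matched a promoter by symbol (0.165%). Among ER genes it was found in 8 of 30 that matched, which were Calr, Canx, Creld2, Dnajc3, Hsp90b1, Hspa5, Pdia6 and Syvn1. Of these 8, all but Canx were called higher in P2. Of the 15 tested genes that hold the element, 10 were called higher in P2 and 0 lower, beside 13.9% and 15.2% of all genes. These 10 include the called ER genes just named, so the counts overlap and are not separate results. The promoters of Hspa5 and Pdia6 are shown because both genes are among those called, with the element in capitals.
Hspa5, chr2:34771840-34772139, plus strand: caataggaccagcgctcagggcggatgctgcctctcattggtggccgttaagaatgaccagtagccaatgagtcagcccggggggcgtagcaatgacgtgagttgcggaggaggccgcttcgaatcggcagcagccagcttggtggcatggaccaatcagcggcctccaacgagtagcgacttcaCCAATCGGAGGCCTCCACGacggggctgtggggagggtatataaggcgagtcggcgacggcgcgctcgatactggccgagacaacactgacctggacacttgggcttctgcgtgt
Pdia6, chr12:17266339-17266638, plus strand: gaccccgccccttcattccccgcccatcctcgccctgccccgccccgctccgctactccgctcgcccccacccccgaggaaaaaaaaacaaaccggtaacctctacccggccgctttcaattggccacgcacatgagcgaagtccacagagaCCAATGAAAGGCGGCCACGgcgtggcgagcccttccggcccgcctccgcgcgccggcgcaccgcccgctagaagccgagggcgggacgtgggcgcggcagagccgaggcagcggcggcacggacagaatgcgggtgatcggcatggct
A match of letters describes the window and shows no binding.

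Stem cell genes were divided. Of 24 genes of crypt base columnar stem cells, 9 were called higher in P2, beside 13.9% of all genes, with a median of 1.31. A single gene was called lower, a smaller share than the 15.2% of all genes. Lgr5, the R-spondin receptor that marks these cells (chromosome 10, 114887367 to 115024836 in mm9, minus strand), rose from 10.5 and 9.70 CPM in P1 to 80.5 and 81.2 CPM in P2 (log2 fold change 3.0, SE 0.31, edgeR adjusted p = 0.000274). Ephb3, a receptor that keeps Paneth cells at the crypt base, changed by 4.26, Msi1, an RNA-binding protein, by 3.95 and Smoc2 by 1.63. Olfm4, an abundant stem cell marker, stood at 424 and 650 CPM in P1 and 468 and 411 CPM in P2 and was not called (-0.29, SE 0.75, edgeR adjusted p = 0.774), and its groups overlapped. Ascl2, the transcription factor of these stem cells, stood at 4.24 and 1.34 CPM in P1 and 4.27 and 3.35 CPM in P2 (0.44, SE 0.56). Sp5, a target of Wnt signalling, fell from 42.2 and 26.8 CPM to 2.44 and 4.01 CPM (-3.38, SE 0.46). Thus the markers did not move as 1 block, and the higher calls numbered 7 to 9 without any one library.
Of 9 genes proposed for reserve stem cells, 4 were called higher, beside 13.9% of all genes: Hopx (1.91), Dll1 (2.53), Lrig1 (2.60) and Prox1 (3.09). Prox1 is also expressed by enteroendocrine and tuft cells and Dll1 by secretory progenitors. Tert, the telomerase subunit, stood at 2.54 and 2.68 CPM in P1 and 1.52 and 1.56 CPM in P2 and was not called (-0.75, SE 0.48, edgeR adjusted p = 0.227). Bmi1 changed by 0.59 and the keratin Krt19 by -0.67, and neither was called. Without P1 replicate 1 or P1 replicate 2 there were 2 calls, and without either P2 library 3.

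Genes of the Wnt, Notch and ERBB pathways, through which neighbouring cells signal to stem cells, moved in both directions. Wnt3, the Wnt ligand of Paneth cells, rose from 5.59 and 25.6 CPM to 202 and 207 CPM (log2 fold change 3.71, SE 0.70, edgeR adjusted p = 0.0026). Egf, the epidermal growth factor, rose from 1.69 and 5.35 CPM to 69.8 and 63.8 CPM (log2 fold change 4.23, SE 0.68). Dll4 and Dll1, ligands of Notch, changed by 3.64 and 2.53. These 4 ligands were higher in both P2 libraries than in either P1 library, while the ERBB ligands Nrg4 (-1.57), Hbegf (-2.27) and Ereg (-3.85) had negative changes and were not called.
The counts below are to be read against 13.9% of all genes called higher and 15.2% called lower. Of 16 Wnt genes, 6 were called higher, including the receptors Lgr4 (2.82) and Fzd6 (3.13), and 1 lower, Ctnnb1, which encodes beta-catenin (-1.23). Of 18 Notch genes, 4 were called higher and 3 lower, the latter a share close to that of all genes. The lower calls were Notch2 (-1.82), the feedback gene Nrarp (-2.08) and the Notch inhibitor Numb (-2.10). Notch3 had 0 counts in P1 and 12 and 13 counts in P2, at least 6.49-fold higher. Of 12 ERBB genes, 6 had a positive and 6 a negative change, and 4 were called higher, which were Egf, Btc (2.44), the receptor Egfr (2.26) and the ERBB inhibitor Lrig1, while the receptors Erbb2 (-0.41) and Erbb3 (0.11) were not called. Leaving out P1 replicate 1, P1 replicate 2, P2 replicate 1 and P2 replicate 2 in turn, the higher calls numbered 3, 5, 3 and 4 for Wnt, 2, 4, 2 and 3 for Notch and 1, 2, 2 and 2 for ERBB.

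The transcript of Cdk9, the kinase that OSCAR reports on, showed no detectable difference. Cdk9 (chromosome 2, 32561304 to 32568596 in mm9, minus strand) stood at 34.6 and 39.0 CPM in P1 and 37.8 and 40.4 CPM in P2, a log2 fold change of 0.09 (SE 0.19, edgeR adjusted p = 0.733). Its groups overlapped, and its sign turned to negative when library totals were used for scaling. Ccnt1, the cyclin T1 partner of Cdk9, stood at 30.3 and 30.1 CPM in P1 and 44.2 and 45.5 CPM in P2 and was not called (0.57, SE 0.20, edgeR adjusted p = 0.0415). Eef1a1, the endogenous gene for elongation factor 1 alpha, after which the reporter's promoter is named, stood at 1812 and 1468 CPM in P1 and 1866 and 1432 CPM in P2 (0.01, SE 0.33, edgeR adjusted p = 0.988). Neither Cdk9 nor Eef1a1 RNA separated the groups. CDK9 activity and the OSCAR ratio were not measured in these libraries, and the EF1alow gate of both groups rests on the deposited labels. Why neither RNA differed was not tested.
Of 38 tested genes of P-TEFb and elongation, 3 were called higher and 5 lower, 8 in all, below the 29.1% called among all genes, and the median was -0.19. Called higher were Ccnt2, the alternative cyclin T2 (1.54), Mllt3, a member of the super elongation complex (1.87), and Rpap2, a phosphatase of the polymerase tail (2.30). Called lower were Larp7 (-1.70) and Mepce (-0.73), which hold P-TEFb inactive in the 7SK particle, the tail phosphatase Ssu72 (-1.07), the elongation factor partner Eaf1 (-0.96) and Th1l (-0.90), a subunit of the pausing factor NELF. These calls depended on the scaling. With library totals 2 of the 8 were kept, and the list then had 0 higher and 3 lower calls. With upper quartile scaling 5 of the 8 were kept, as they were with mitochondrial genes removed. Of 30 tested genes of RNA polymerase II and the general factors, 0 were called higher and 2 lower, Gtf2b (-2.17) and Gtf2f1 (-1.66), and Polr2a, the catalytic subunit, changed by -0.26. Of these 8 elongation genes, 1 kept its call without P1 replicate 1 or P2 replicate 1, and 3 did without P1 replicate 2 or P2 replicate 2. Among polymerase genes 2 were called lower whichever of the 4 libraries was left out.
Ribosomal protein genes and translation factors were near even. Of 79 cytoplasmic ribosomal protein genes, 3 were called higher and 1 lower, with a median of 0.27 that turned to -0.18 with scaling by library totals and to -0.01 without P2 replicate 1, where 0 were called. Of 7 translation elongation genes, edgeR called 0 (1 at an unadjusted p below 0.05) and DESeq2 0, and their median of 0.05 turned to -0.39 with library totals. Of 24 genes of the nucleolus and RNA polymerase I, 1 was called, Polr1a (2.18), the largest subunit of polymerase I, and the median of 0.34 turned to -0.10 with library totals.

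Genes of mitosis were lower in P2. Of 28 tested, 23 were called lower, 1 was called higher, and the median was -2.46. Mki67, the proliferation antigen Ki-67, stood at 89.3 and 118 CPM in P1 and 32.3 and 27.7 CPM in P2 (log2 fold change -1.79, SE 0.37, edgeR adjusted p = 0.00415). Cdc20, the activator of the anaphase-promoting complex, stood at 19.0 and 19.7 CPM in P1 and 2.44 and 1.34 CPM in P2 (-3.39, SE 0.38). Cdk1, the mitotic kinase, changed by -2.35, Top2a, the topoisomerase of dividing cells, by -2.21 and Birc5, the survivin of the chromosomal passenger complex, by -3.21. The groups did not overlap in any of the 28 genes, nor in 77% of all genes tested. The exception in direction was Plk1, a mitotic kinase, which stood at 19.8 and 18.6 CPM in P1 and 229 and 161 CPM in P2 (3.34, SE 0.36, edgeR adjusted p = 0.000323). In mm9 Plk1 lies on chromosome 7, 129302951 to 129313389, plus strand, and the annotation places no other gene over its exons. The lower mitotic calls numbered 12, 16, 11 and 11 without P1 replicate 1, P1 replicate 2, P2 replicate 1 and P2 replicate 2.
Of 29 genes of DNA replication, 3 were called lower, a smaller share than the 15.2% of all genes, and 1 was called higher, with a median of -1.14. Those called lower included Cdt1 (-2.31), which licenses origins, and Rfc3 (-1.77), a clamp loader subunit, and the 1 called higher was Rfc1 (3.07), the largest clamp loader subunit. Of 28 regulators of G1, 0 were called higher and 5 lower, a share close to the 15.2% of all genes, among them Cdkn2c, a CDK4 inhibitor (-2.22), and Max, the partner of Myc (-3.14), while the inhibitor Cdkn1a was not called (-0.85). Leaving out P1 replicate 1, P2 replicate 1 or P2 replicate 2 left 1 replication gene called lower, and of the 5 G1 calls 3 were kept without P2 replicate 1 and 2 without P2 replicate 2.
The letters TTTGAA are the cell cycle homology region, through which many mitotic promoters are known to be repressed in resting cells. They were found on either strand in 19 of 25 mitotic genes that matched a RefSeq promoter (76.0%), in 1312 of 9080 tested genes (14.4%) and in 5466 of all 27025 genes (20.2%). The promoters of Cdc20, which was lower in P2, and of Plk1, which was higher, are shown to compare the placing of the letters, in capitals. The letters begin 18 bases before the start of Cdc20 and 30 bases after that of Plk1.
Cdc20, chr4:118437294-118437593, minus strand: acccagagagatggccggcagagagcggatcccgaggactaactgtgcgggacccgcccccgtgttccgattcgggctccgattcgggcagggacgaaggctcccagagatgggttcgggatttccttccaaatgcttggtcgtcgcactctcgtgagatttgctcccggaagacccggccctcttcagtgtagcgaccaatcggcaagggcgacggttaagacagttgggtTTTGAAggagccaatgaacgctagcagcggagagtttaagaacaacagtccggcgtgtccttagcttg
Plk1, chr7:122159185-122159484, plus strand: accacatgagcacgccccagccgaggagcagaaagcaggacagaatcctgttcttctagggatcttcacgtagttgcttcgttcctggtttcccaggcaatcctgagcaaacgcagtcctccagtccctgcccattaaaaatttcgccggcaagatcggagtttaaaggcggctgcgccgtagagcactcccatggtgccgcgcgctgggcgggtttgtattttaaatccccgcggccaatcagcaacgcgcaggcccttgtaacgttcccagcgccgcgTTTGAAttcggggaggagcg

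Each of 6 lists of absorptive genes held more lower than higher calls. Of 16 brush border genes, 10 were called lower and 0 higher (median -2.06). Of 17 brush border hydrolases, 11 were called lower and 0 higher (median -3.40). Vil1, the microvillus protein villin, fell from 5311 and 6718 CPM in P1 to 657 and 1303 CPM in P2 (log2 fold change -2.62, SE 0.54, edgeR adjusted p = 0.00418). Krt20, a keratin of differentiated enterocytes, fell from 6426 and 5708 CPM to 296 and 1199 CPM (-3.02, SE 0.68). Alpi, intestinal alkaline phosphatase, fell from 366 and 263 CPM to 16.5 and 26.5 CPM (-3.86, SE 0.57), and Lct, the lactase, and Treh, the trehalase, changed by -3.62 and -4.34. P2 replicate 2 kept more brush border transcript than P2 replicate 1, but neither reached the P1 level.
Of 22 genes of fat absorption, 13 were called lower and 1 higher (median -2.89). Fabp1, a fatty acid carrier, fell from 5631 and 3645 CPM to 152 and 349 CPM (-4.21, SE 0.92, edgeR adjusted p = 0.00548). Apoa4 and Apob, which coat chylomicrons, changed by -4.11 and -2.68, and Mttp, which loads them with lipid, by -2.95. Fabp2, the most abundant member, fell short of the threshold at 17931 and 16605 CPM in P1 and 241 and 1613 CPM in P2 (-4.22, SE 1.07, edgeR adjusted p = 0.0107), and its P2 libraries differed by over 6-fold. The exception was Scarb1, the lipoprotein receptor SR-BI, at 3.15. Of 19 nutrient and ion transporters, 5 were called lower and 1 higher, the latter Cybrd1, the duodenal iron reductase (4.19), while the sugar transporters Slc5a1 (-3.23) and Slc2a2 (-3.91) were not called. Of 24 xenobiotic genes, 12 were called lower and 0 higher (median -2.97), with Aldh1a1, a retinaldehyde dehydrogenase, at -4.70 and Cyp3a11, a drug-metabolising enzyme, at -3.87. Of 8 genes of the villus tip, 4 were called lower and 1 higher.
The lower calls without P1 replicate 1, P1 replicate 2, P2 replicate 1 and P2 replicate 2 were 2, 2, 2 and 5 for the brush border, 3, 5, 1 and 4 for hydrolases, 2, 5, 1 and 4 for fat absorption, 2, 3, 1 and 2 for transporters, 7, 10, 2 and 7 for xenobiotic genes and 0, 0, 0 and 2 for the villus tip.

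Transcription factors of the absorptive lineage were lower too, with 16 of 27 called lower, 0 higher and a median of -1.48. Hnf4g, an enterocyte nuclear receptor, fell from 1431 and 1105 CPM to 57.9 and 131 CPM (log2 fold change -3.75, SE 0.44, edgeR adjusted p = 0.000387). Hnf4a, its relative, fell short of the threshold at 1165 and 1408 CPM in P1 and 420 and 667 CPM in P2 (-1.24, SE 0.32, edgeR adjusted p = 0.0113). Maf (-3.91), Ppargc1a, a coactivator of mitochondrial genes (-3.82), Vdr, the vitamin D receptor (-2.92), and Cdx2, the intestinal identity factor (-1.35), were called lower. The calls numbered 13, 12, 7 and 15 without P1 replicate 1, P1 replicate 2, P2 replicate 1 and P2 replicate 2.
The letters CAAAGTCCA, a site of HNF4 factors, were counted on either strand over 6 lists, which differ from the 6 absorptive lists above. These were brush border, hydrolases, transporters, fat absorption, xenobiotic genes, and fatty acid oxidation and ketogenesis, without the villus tip. The letters were found in 6 of 102 genes of these lists that matched a promoter (5.88%) and in 57 of 9080 tested genes (0.628%). Among called genes they were found in 16 of 1425 lower in P2 (1.12%) and 12 of 1339 higher in P2 (0.896%). The 6 genes were Alpi, Treh, Sult1b1 and Cyp3a11, which were called lower, and Cyp2c65 and Slc3a1, which were not called. The promoters of the hydrolases Alpi and Treh are shown with the letters in capitals, which in Treh lie on the opposite strand.
Alpi, chr1:87101557-87101856, minus strand: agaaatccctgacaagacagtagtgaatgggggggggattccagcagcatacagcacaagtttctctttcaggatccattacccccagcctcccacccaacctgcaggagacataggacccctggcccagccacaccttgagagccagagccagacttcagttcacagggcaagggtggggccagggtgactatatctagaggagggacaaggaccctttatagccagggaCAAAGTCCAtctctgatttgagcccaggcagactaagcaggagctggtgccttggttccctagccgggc
Treh, chr9:44672983-44673282, plus strand: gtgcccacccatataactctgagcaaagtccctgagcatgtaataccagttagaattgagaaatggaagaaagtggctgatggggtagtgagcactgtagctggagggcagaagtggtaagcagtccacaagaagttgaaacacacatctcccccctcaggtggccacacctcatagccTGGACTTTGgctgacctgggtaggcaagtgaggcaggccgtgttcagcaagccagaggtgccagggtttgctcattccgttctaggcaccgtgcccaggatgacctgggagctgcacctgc

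Nuclear genes of the respiratory chain were lower in P2. Of 75 tested nuclear genes of the respiratory chain, 71 were called lower in P2 and 0 higher, against 15.2% of all genes called lower, and all 75 had a negative change, between -2.69 and -0.47 with a median of -1.77. They held 2.28% and 2.13% of the counts in P1 and 0.347% and 0.469% in P2. Atp5b, a catalytic subunit of ATP synthase, fell from 3364 and 3445 CPM to 698 and 870 CPM (log2 fold change -2.12, SE 0.34, edgeR adjusted p = 0.00125). Atp5g3, a subunit of the rotor, changed by -2.69, Sdha, the catalytic subunit of complex II, by -1.92 and Ndufb3 of complex I by -2.56. The 4 that were not called were Atp5l, Atp5s, Cox7c and Ndufb11.
Of the 7 tested protein genes encoded by the mitochondrial genome, 0 were called by edgeR, 0 had an unadjusted p below 0.05, and their median was 0.05, which turned to -0.39 with library totals and to -0.17 without P1 replicate 2. The gene mt-Co1, a subunit of complex IV, stood at 7434 and 4705 CPM in P1 and 5323 and 5334 CPM in P2 (-0.19, SE 0.90), and mt-Nd1 of complex I changed by -0.07 (SE 0.65), errors wide enough to leave their direction unknown. The other 6 of the 13 protein genes had too few counts to be tested, and 5 of them had 0 counts in all 4 libraries. The difference between nuclear and mitochondrially encoded genes was not tested. The fit without the 2 libraries titled P3, whose mitochondrial shares stand apart, called 0 of the 7 as well, as did DESeq2. The nuclear calls numbered 55, 60, 49 and 63 without P1 replicate 1, P1 replicate 2, P2 replicate 1 and P2 replicate 2.
Genes of fatty acid oxidation and ketogenesis were lower as well, with 18 of 22 called lower, 0 higher and a median of -1.87. Hadh, an enzyme of the oxidation cycle, fell from 1746 and 1959 CPM to 139 and 257 CPM (-3.22, SE 0.42, edgeR adjusted p = 0.000535). These calls numbered 13, 14, 10 and 15 without P1 replicate 1, P1 replicate 2, P2 replicate 1 and P2 replicate 2.

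**Figure D3:**
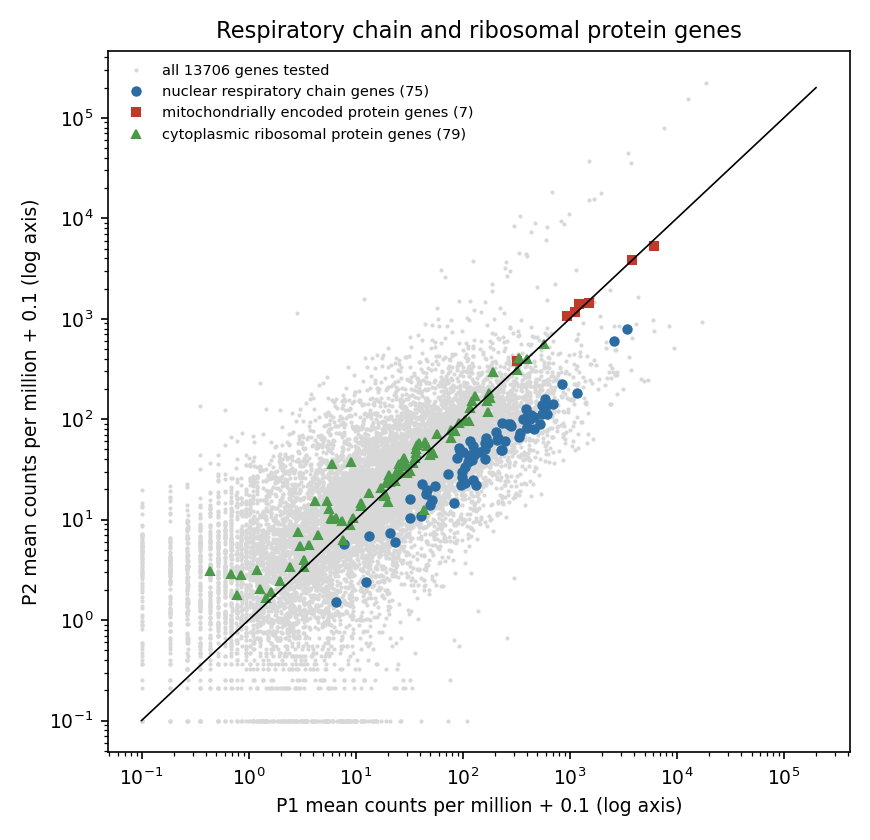
Mean CPM plus 0.1 in P1 (horizontal, log axis) and P2 (vertical, log axis), with all 13706 tested genes in grey and the line of equal levels. The 75 nuclear respiratory chain genes lie below the line, while the 7 mitochondrially encoded protein genes lie close to it and most of the 79 ribosomal protein genes lie near it.

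Lymphocyte transcripts were found in P1 and were nearly absent from P2. The 12 listed genes of intraepithelial lymphocytes, T cells that reside between epithelial cells, held 0.121% and 0.0349% of the counts in P1 replicates 1 and 2 and 0.00121% and 0.00162% in P2. Of 11 tested, 6 were called lower and 0 higher. Gzma, a granule protease of these cells, had 2314 and 775 counts in P1 and 3 and 1 in P2. Gzmb had 976 and 319 counts in P1 and 0 in both P2 libraries, at least 138-fold lower, and Cd8a, the coreceptor of cytotoxic T cells, had 719 and 143 counts in P1 and 0 in P2, at least 92.0-fold lower. P1 replicate 1 held over 3 times the lymphocyte share of P1 replicate 2, and the lower calls numbered 2 without P1 replicate 1, 4 without P1 replicate 2 and 0 without either P2 library.
The lymphocyte share was higher in P1, as were most absorptive and mitotic genes above, and its part in those results was not tested. In P1 replicates 1 and 2 the brush border list held 2.46% and 2.59% of the counts and the mitosis list 0.0595% and 0.0578%, the latter below the lymphocyte share of P1 replicate 1. Markers of other non-epithelial cells were sparse: 4 of 7 fibroblast, 3 of 6 endothelial and 2 of 4 smooth muscle genes had 0 counts in all 4 libraries. Of 3 tested myeloid genes 1 was called lower, Itgam (-4.51), and Lyz2, the lysozyme of macrophages, was not called (0.37, SE 0.78). Of 2 tested B cell genes 1 was called lower, Igkc, with 131 and 264 counts in P1 and 0 and 1 in P2. Of 7 tested genes of antigen presentation by MHC class II, all had a negative change and 1 was called lower, H2-DMa (-3.41), while 5 were called lower with a replicate block. This list held 0.0152% and 0.0807% of the counts in P1 and 0.00115% and 0.0085% in P2, and in each of the 5 populations replicate 2 held the larger share. Epcam, the surface marker used for the sort, stood at 542 and 644 CPM in P1 and 672 and 786 CPM in P2 (0.30, SE 0.28) and was not called, while the epithelial genes Krt18 (2.53) and Cdh1 (1.46) were called higher.

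By size of change among called genes with a mean of at least 10 CPM over the 4 libraries and no overlap, the 10 highest in P2 were Trpa1, Afp, Gpr112, Slc38a11, Cck, Alb, Chga, Sstr1, Pex5l and Pnmal2, with log2 fold changes between 6.81 and 8.94. Ucn3, described above, had a mean of 9.73 CPM and so fell just below that limit. Trpa1, an irritant-sensing channel of enterochromaffin cells, had 3 and 0 counts in P1 and stood at 95.1 and 173 CPM in P2. Afp, the fetal plasma protein alpha-fetoprotein, stood at 5.25 and 0.17 CPM in P1 and at 802 and 1467 CPM in P2, and Alb, its neighbour albumin, had 1 and 2 counts in P1 and 76 and 292 in P2. Both were called (edgeR adjusted p = 0.00363 for Afp and 0.000896 for Alb), and both were higher in P2 replicate 2. The 10 lowest in P2 were Gzmb, Cd8a, Gimap4, Nkg7, Rgs1, Cd7, Gzma, Igkc, Cd3g and Ikzf3, all genes known from lymphocytes or plasma cells, and each had at most 3 counts in any P2 library. Outside those ends, 12 genes of epithelial defence had a median of -1.95, with 5 called lower and 1 higher. The 1 was Reg4, a lectin of secretory cells, which rose from 119 and 390 CPM to 3431 and 3929 CPM (3.85, SE 0.53, edgeR adjusted p = 0.000654), while Reg3a (-3.70), the chemokine Ccl25 (-3.47) and the inflammasome gene Nlrp6 (-3.08) were called lower. Reg3g (1.04) and Reg3b (-0.82) were not called. Of 15 immediate early and heat shock genes, 3 were called higher, beside 13.9% of all genes: Fos (1.51), Btg2 (0.97) and Nr4a1 (4.08). Egr1 of that list was not called (2.78, edgeR adjusted p = 0.0119). That list had 0, 2, 1 and 1 calls without P1 replicate 1, P1 replicate 2, P2 replicate 1 and P2 replicate 2.

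The P4 libraries, sorted as OSCARmed at the same low EF1a level, put the P1 and P2 shares of counts in context, as values with no test. The Paneth share was 0.0938% and 0.175% in P4, below both P1 libraries, so across the 3 EF1alow gates it did not rise in step with the OSCAR ratio. The goblet share was 1.65% and 1.35% in P4, between 0.342% and 0.514% in P1 and 4.28% and 9.28% in P2. The nuclear respiratory chain share was 1.98% and 2.11% in P4, beside 2.28% and 2.13% in P1. On the TMM scale the mean log2 CPM of that list was 6.38 and 6.40 in P4, below the 7.14 and 7.02 of P1. In P2 it was 5.18 and 5.51. The mitotic share was 0.168% and 0.185% in P4, against 0.0595% and 0.0578% in P1 and 0.0242% and 0.0190% in P2, and the stem cell share was 0.985% and 1.54% in P4, against 0.0944% and 0.138% in P1 and 0.206% and 0.159% in P2. Shares in P2 are lowered by the large Paneth fraction, which the TMM-scaled values above correct for. The TMM factors of P4 were 1.51 and 1.56, so its shares are not on the same scale as those of P1 either.

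**Figure D4:**
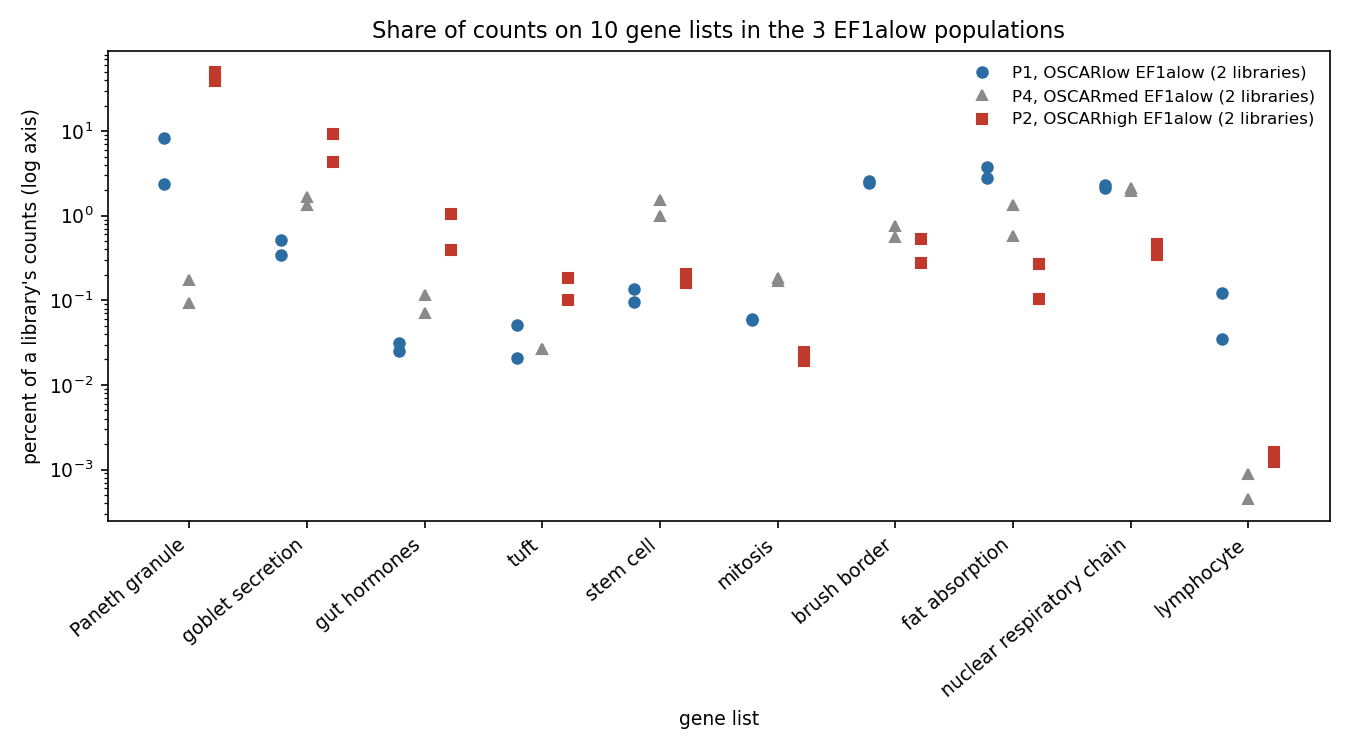
Percent of each library's counts (log axis) that fell on 10 gene lists in the 2 P1, 2 P4 and 2 P2 libraries. P2 is highest for the 4 secretory lists, P4 is highest for the stem cell and mitosis lists, and P1 is highest for the brush border, fat absorption and lymphocyte lists.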

How the data were processed

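The authors sequenced polyadenylated RNA with an unstranded kit, aligned the reads with TopHat2 2.1.0 to mm9 and counted them over exons with HTSeq 0.11.2, ignoring strand and reads with several alignments. FastQC 0.11.5 is also named in the submitters' processing notes. The deposited values are raw counts per gene, 1 file a library. Without strand, reads of a gene and of a gene antisense to it cannot be told apart, which touches Vil1, Cdc20, Trpm5, Mmp7 and Treh among the genes named.

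From 35006 gene names, 206 ribosomal RNA names were removed, found by their class in the GENCODE annotation of the same build. A row with no gene name, at most 0.000596% of counts, and the HTSeq summary rows were left out. The main test was edgeR 4.0.16's quasi-likelihood test (R 4.3.3) with TMM factors, edgeR's default filter on low counts and 1 mean for each of the 5 populations over all 10 libraries, with Benjamini-Hochberg adjustment and a threshold of 0.01. CPM values are means or single libraries with no pseudocount, and fold changes come from the fit at edgeR's default prior count. A prior count of 2 was used only for log2 CPM values, not for fold changes. Each SE was derived as the size of the log2 fold change divided by the square root of the edgeR F statistic. A fold against a group at 0 uses 3 counts per library as its floor, which covers counting error only. Alternatives were RLE, upper quartile and total scaling, other filters and thresholds, DESeq2 1.42.0, fewer libraries or genes, a replicate block, and each library left out. The test was also run before use on simulated counts with changes of 4-fold, and its outcome is not reported here. Those counts drew P2 from the P1 means. They lacked the concentration of counts seen in P2, so they cannot check the scaling.

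The members and gene lists were chosen with earlier results of these data known. Genes were named by a rule: the 10 largest changes in each direction with at least 10 CPM and no overlap, the 4 most abundant and 2 most changed members of each list, and a short list of known markers. Other genes named were chosen after their values were seen, and some genes are not reported here. The goblet gene listed as Clca3 is named so in mm9. Promoter sequences are from RefSeq, in build GRCm38.p6, and are not mixed with mm9 coordinates.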

Additional observations from a re-analysis of the deposited data

Results flagged for a closer look

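A signal outside the gene counts separated the groups. Alignment records that matched several places in the genome, which were not counted to any gene, made up 29.3% and 28.2% of all records in P2 replicates 1 and 2 and 11.6% and 14.9% in P1 replicates 1 and 2. The Paneth share of the counted reads was 49.7% and 39.3% in the same P2 libraries and 2.38% and 8.22% in P1. The 2 libraries titled P3 had still more such records, 41.7% and 33.1%, with a Paneth share of 0.225% and 0.234%. The part of closely related defensin copies in the uncounted records was not tested. Groups of 2 libraries were not checked for outlying libraries.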

How the results depend on the processing

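Of the 202 named genes tested, 158 were called, and 0 of these turned in direction in any of 16 settings. Leaving out a library ended the call of 82 of them in at least 1 fit, the other settings that of 33, and 75 were called throughout. With a library left out, the calls over all genes ranged from 1576 to 2465 and the share of them higher in P2 from 43.5% to 60.3%. The count was 6462 at an adjusted p under 0.05 and 1460 in the test against a log2 fold change of 1. It was 3756 with only the P1 and P2 libraries and 5129 without both P3 libraries. The share higher in P2 was 53.6% with upper quartile scaling, 27.1% with library totals, 57.3% in the test against a log2 fold change of 1, 53.1% with only the P1 and P2 libraries, 49.8% without both P3 libraries and 54.3% with mitochondrial genes removed. The median of all genes moved to 0.16 with upper quartile scaling and with mitochondrial genes removed. With library totals the sign of 6 uncalled genes turned negative, at -0.0033 for Ascl2, -0.36 for Cdk9, -0.44 for Eef1a1, -0.15 for Epcam, -0.34 for Erbb3 and -0.078 for Lyz2. Eef1a1 was also at -0.0039 with no filter and -0.0060 with the 50 most abundant genes removed, and mt-Nd1 at 0.076 with upper quartile scaling and 0.0045 with only P1 and P2. Uncalled genes that turned when a library was left out ranged for mt-Nd1 from -0.35 to 0.26, Ascl2 from -0.16 to 1.46, Cdk9 from -0.015 to 0.18, Eef1a1 from -0.19 to 0.20, Erbb3 from -0.055 to 0.27, Lyz2 from -0.14 to 1.13, mt-Co1 from -0.47 to 0.16, Olfm4 from -0.59 to 0.055, Reg3b from -1.42 to 0.18, Gm15299 from -1.17 to 11.05 and Reg3g from -0.016 to 2.73. The cause was not tested. Where 1 library was left in a group, it was assumed to vary like the other groups. The replicate numbers were not taken to pair the samples, since the sources used here name no shared animal or day. Deviations of same-numbered P1 and P2 libraries correlated at 0.11 over 13706 genes. Over the 10 pairs of populations the range was -0.06 to 0.55, and only P2 with P3 was negative. P1 stood at 0.25, 0.31 and 0.27 with P3, P4 and P5. Whether libraries of the same number share a batch was not tested. A replicate block gave 4519 calls, 47.2% of them higher in P2. With that block the lower calls numbered 5 and not 1 for MHC class II, 10 and not 5 for transporters and 7 and not 3 for DNA replication. The higher calls numbered 7 and not 3 for immediate early and heat shock genes. With no filter on low counts, 7 MHC class II genes were called lower. Depth limits genes of few counts, since 3 counts in a P2 library correspond to about 0.79 CPM.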

Other observations

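The gene groups below were put together after the values had been seen, so their counts are descriptions and carry no weight as tests. Genes that make amino acids and one-carbon units stood out among the higher calls: of 20, 13 were called higher and 2 lower, with a median log2 fold change of 3.46. Asns, which makes asparagine, rose from 26.3 and 31.4 CPM in P1 to 515 and 310 CPM in P2 (log2 fold change 3.83, SE 0.35), Psat1, of serine synthesis, from 6.10 and 7.19 CPM to 148 and 112 CPM (4.29, SE 0.25), and Pycr1, of proline synthesis, from 4.40 and 8.20 CPM to 160 and 113 CPM (4.43, SE 0.45). Slc1a4, a transporter of neutral amino acids, changed by 4.37 and Aldh1l2, a mitochondrial folate enzyme, by 5.79. Phgdh, the first enzyme of serine synthesis, was not called (4.17, edgeR adjusted p = 0.0114), and Got1 (-2.82) and Cth (-1.85) were the lower calls. Of 27 genes of transport between ER and Golgi, 8 were called higher and 4 lower, the latter a share close to the 15.2% of all genes. The higher calls included Kdelr3 (3.60) and Tmed3 (2.49), and the lower calls Sec23a (-3.38) and Sar1b (-1.60), both of the COPII coat. Of 11 laminin and basement membrane genes, 4 were called higher, with Lama5 at 5.42 and 11.2 CPM in P1 and 388 and 271 CPM in P2 (5.30, SE 0.45), and 1 lower, Nid2 (-2.85).

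On the lower side, 16 of 17 genes of the tricarboxylic acid cycle were called lower and 0 higher, with a median of -1.95. Mdh2, malate dehydrogenase, fell from 2405 and 2251 CPM to 204 and 380 CPM (-2.99, SE 0.45), and Cs, citrate synthase, from 1705 and 2011 CPM to 181 and 326 CPM (-2.87, SE 0.39). Of 14 genes of purine and pyrimidine salvage and breakdown, 9 were called lower and 1 higher, with a median of -3.27. Gda, guanine deaminase, stood at 5148 and 4678 CPM in P1 and 45.7 and 435 CPM in P2 (-4.35, SE 1.03), and Xdh, xanthine dehydrogenase, at 1463 and 1166 CPM in P1 and 39.6 and 147 CPM in P2 (-3.81, SE 0.70). In both genes P2 replicate 2 held several times the level of P2 replicate 1, and the higher call was Ampd3, an AMP deaminase (3.07). Of 15 interferon response genes, 7 were called lower and 0 higher, with Ifit1 at -3.87. The lymphocyte transcripts of P1 move with this last group, and their part in it was not tested. Without P1 replicate 1, P1 replicate 2, P2 replicate 1 and P2 replicate 2, the higher calls for amino acid synthesis numbered 9, 10, 11 and 12, and the lower calls 15, 15, 12 and 13 for the tricarboxylic acid cycle, 4, 4, 4 and 9 for salvage and breakdown, and 3, 4, 3 and 5 for the interferon group.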
